A study of Mus musculus with 10 samples.

Results

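The genes described here were 47 mouse genes of adipogenesis and lipid metabolism, examined for N6-methyladenosine (m6A) peaks in 3T3-L1 cells. They comprised 25 transcriptional regulators (6 nuclear receptors, 12 other DNA-binding factors and 7 coregulators), 2 regulators of signalling (Dlk1 and Insig1) and 20 lipid enzymes and adipocyte products. A peak was assigned to a gene when both of its ends lay in exons of a transcript of that gene on the same strand. At least 1 peak was found in 18 of the 47 genes, or 38.3%, against 16.3% of all 21951 protein-coding genes. The 47 genes were chosen with earlier results of these data known.

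3T3-L1 is a mouse fibroblast line that is committed to the adipocyte lineage and turns into fat cells when given a hormone cocktail. Dimethyl sulfoxide (DMSO), the solvent control, or 20 µM rhein, a plant anthraquinone that inhibits the RNA demethylase FTO, was given from day 0 to day 3. Per the methods of the study, cells were collected on day 0 as preadipocytes (Pre), on day 3 in mitotic clonal expansion (MCE) and on day 10 after differentiation (Diff), and the conditions were labelled DMSO Pre, DMSO MCE, DMSO Diff, rhein MCE and rhein Diff. The 10 libraries were 5 m6A immunoprecipitations (IP) and 5 inputs, so each condition had 1 library of each kind, no replicate and no measure of the spread between cultures. All groups came from this single cell line, and all but the preadipocytes had been induced to differentiate.

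m6A is written on adenosines, mostly within the sequence known as DRACH, of which GGAC is a common core, by a methyltransferase complex around METTL3, and is removed by FTO and ALKBH5. Reader proteins that recognise the mark alter splicing, translation and decay of the transcript, and marks are known to gather in long internal exons and near the stop codon. In adipogenesis, C/EBP factors of the early phase switch on Pparg and Cebpa, which with RXR then activate genes of fatty acid synthesis, uptake, storage and lipolysis. Regulators such as NR2F2, SOX9, DDIT3 and NCOR1 are known to hold this programme back.

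The lists held 2824 peaks for DMSO Pre, 5128 for DMSO MCE, 2944 for DMSO Diff, 3069 for rhein MCE and 3071 for rhein Diff. The score deposited with every peak followed the scale of an adjusted p-value (as its negative log2), so that a higher score stood for stronger evidence of a peak and not for a stoichiometry of methylation. The rhein lists shared 3067 identical spans, and all 15 peaks of the 47 genes had the same spans in both, with scores that differed by at most 0.00695. They were therefore counted as 1 sample, named rhein below, which leaves 4 distinct lists. No comparison of the rhein stages was possible, and the rhein peaks could not be assigned to MCE or Diff. Read numbers per gene were not analysed here, so a gene without a peak may lack reads rather than m6A, a difference in a list may follow its depth, and the labelled cell identities could not be checked against adipocyte markers. In such bulk samples, fewer adipocytes and less RNA per adipocyte cannot be told apart.

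The sites that recurred across lists are shown first, since they are where the recurrent calls among these genes lay on the transcript. Each window holds 30 bases of the sense strand, 5′ to 3′, centred on the GGAC nearest to the midpoint of the highest-scoring peak, with GGAC in capitals. The first 2 sites of Nr2f2 and the site of Sox9 lay under a peak in all 4 distinct lists, those of Rxra and Fasn in 3, and those of Ncor1 and Acly in 2.
Nr2f2 3′ UTR, chr7:70354507-70354536, minus strand: ggaagaatttaatGGACtgtgaatttcaaa
Nr2f2 coding exon 2, chr7:70358000-70358029, minus strand: acctgcagatcacGGACcaggtggccctcc
Sox9 3′ UTR, chr11:112785780-112785809, plus strand: ctcctggccagatGGACccaccagtatcag
Rxra 3′ UTR, chr2:27760597-27760626, plus strand: caggctctgtgtgGGACtctagcatgggcc
Fasn 3′ UTR, chr11:120807235-120807264, minus strand: atcctgactctgcGGACcgcaccgggcact
Ncor1 3′ UTR, chr11:62317574-62317603, minus strand: gtttttttaaagtGGACaattcttgttctt
Acly coding exon 19, chr11:100493560-100493589, minus strand: tgctgcgctaccaGGACactccaggagtca

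The central adenosine of the windows of Nr2f2 and Sox9 lay under the peak of every list. In Fasn and Acly it lay under the peak of every list that had the site. In Rxra the adenosine was under the peaks of DMSO Pre and DMSO Diff but outside the narrower rhein peak, and in Ncor1 it was under the peak of DMSO Pre only. The peaks at these sites were 50 to 525 bases long and held up to 7 GGAC each, so the windows mark positions under called peaks and not methylated bases.

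In DMSO Pre 9 of the 47 genes had a peak, or 19.1%, against 6.82% of protein-coding genes. In DMSO MCE there were 13 of 47 (27.7%, against 12.3%), and in DMSO Diff 6 of 47 (12.8%, against 6.6%). With rhein there were 11 of 47 (23.4%), against 7.27% in the list labelled MCE and 7.28% in the list labelled Diff. In each list the share among these genes was thus above that among all protein-coding genes. The genes were chosen with earlier results of these data known, so the excess cannot be read as a property of adipogenic genes. They were not matched to the others in length or expression, and no test was made. The summed number of peaks was 12, 26, 10 and 15 in the same order, which gave 63 peaks over the 4 distinct lists, 44 in regulators and 19 in lipid genes.

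**Figure D1:**
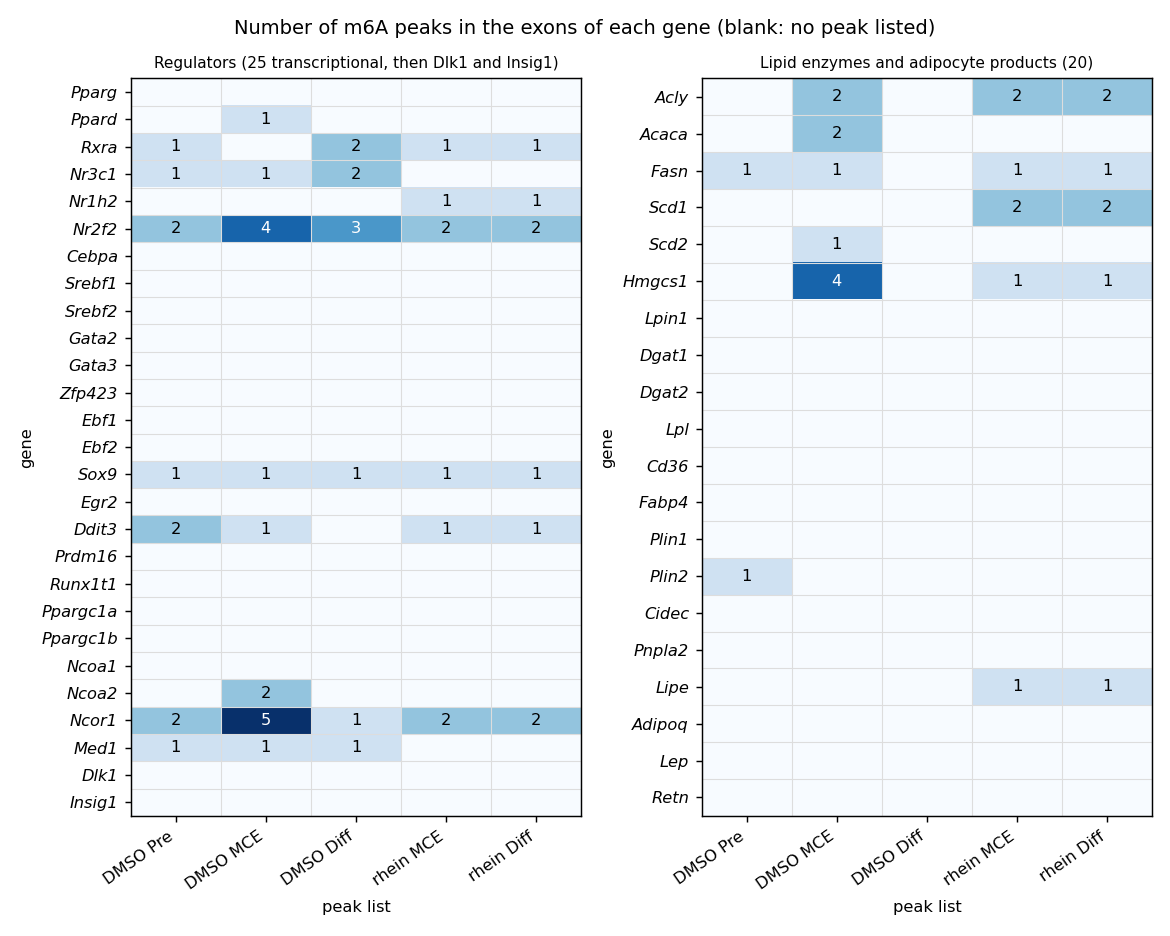
Number of m6A peaks in the exons of each of the 47 genes (rows) in each of the 5 peak lists (columns), with 1 list per condition; regulators are on the left and lipid genes on the right, and a blank cell means that no peak was listed. Nr2f2, Sox9 and Ncor1 have a peak in every list, the DMSO Diff column is blank for all 20 lipid genes, and the rhein columns are identical.

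In both classes the count over the DMSO lists was highest in MCE and lowest in Diff. With rhein the count equalled that of DMSO Diff in regulators and that of DMSO MCE in lipid genes. In DMSO Pre 7 of 25 regulators had a peak, in DMSO MCE 8, in DMSO Diff 6 and with rhein 6, which is a range of 24.0% to 32.0%. Among the lipid genes it was 2 of 20 for DMSO Pre, 5 for DMSO MCE, 0 for DMSO Diff and 5 with rhein. The shares over all protein-coding genes were 6.82%, 12.3%, 6.6% and 7.27% in the same order. With 20 lipid genes, the counts of 2 in DMSO Pre and 0 in DMSO Diff are near these shares. Over any list, 10 of 25 regulators and 8 of 20 lipid genes had a peak, which was 40.0% of each class, against 16.3% of all protein-coding genes. The share over any list was thus the same in both classes while the counts per list were not, and with 1 sample per condition this could not be tested.

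**Figure D2:**
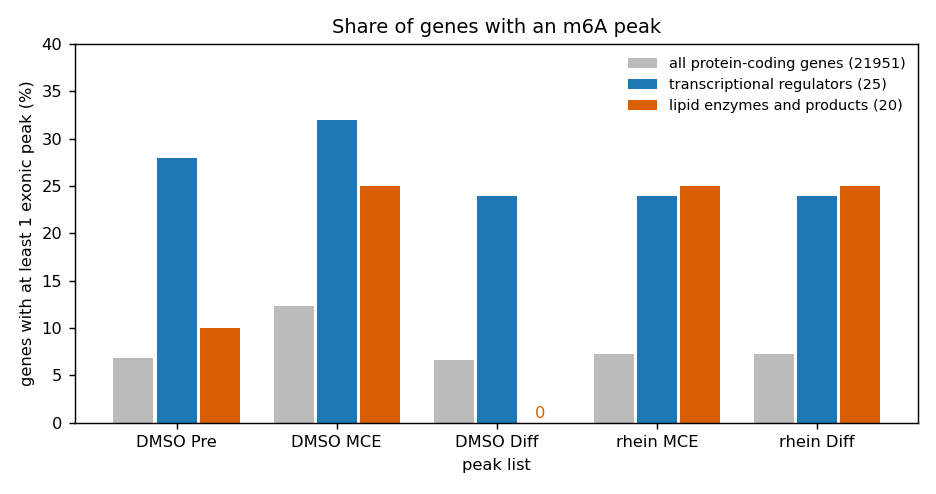
Percent of genes with at least 1 exonic m6A peak (vertical axis, from 0) in each peak list (horizontal axis), for all 21951 protein-coding genes, the 25 transcriptional regulators and the 20 lipid genes; each bar is 1 list with no replicate. Regulators lie between 24.0% and 32.0% in every list, while lipid genes go from 10% to 25%, 0 and 25%.

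The number of lists with a peak varied from gene to gene. Nr2f2, Sox9 and Ncor1, all regulators, had a peak in all 4 distinct lists, as did 555 protein-coding genes, or 2.53%. Rxra, Nr3c1, Ddit3, Med1 and Fasn had peaks in 3 lists, and Acly and Hmgcs1 in 2. The remaining 8 genes with a peak (Ppard, Nr1h2, Ncoa2, Acaca, Scd1, Scd2, Plin2 and Lipe) were in 1 list each. No lipid gene was in all 4 lists, and the only one in 3 was Fasn. With lists cut to equal length, Nr2f2 alone of the 47 genes was in all 4, since the rhein peaks of Sox9 and Ncor1 were among the lowest-scoring of their list.

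Among the nuclear receptors, 5 of 6 had a peak in at least 1 list (83.3%, against 16.3% of all protein-coding genes). Nr2f2 encodes COUP-TFII, an orphan receptor that represses adipogenesis, and was the gene with the highest scores of the set. Its 3′ UTR peak, which spanned the stop codon in exon 3 of 3 and had its midpoint past it, scored 16.2 in DMSO Pre, 69.8 for DMSO MCE, 10.8 for DMSO Diff and 10.3 with rhein. The corresponding ranks were 317 of 2824, 23 of 5128, 764 of 2944 and 889 of 3069, so this peak was in the top 0.45% of the DMSO MCE list and in the top 29.0% of the rhein list. The span was the same 350 bases (chr7:70354369-70354718) in DMSO Pre, DMSO Diff and rhein, and was extended to 525 bases (chr7:70354194-70354718) in DMSO MCE.

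The coding peak of Nr2f2 in exon 2 (chr7:70357970-70358069 in DMSO Pre and chr7:70357970-70358194 in the other lists) had a different order. It scored 25.4 in DMSO Pre, 9.41 for DMSO MCE, 34.8 for DMSO Diff and 33.4 with rhein. Its ranks were 131, 1107, 96 and 148 in the respective lists. The coding peak was the highest-ranked peak of the 47 genes in each list except DMSO MCE, where the 3′ UTR peak was. Further Nr2f2 peaks lay in the 5′ UTR part of exon 1 in DMSO MCE and DMSO Diff, with scores of 7.33 and 9.18, and in the coding part of exon 1 in DMSO MCE, with a score of 9.34.

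Rxra encodes RXRα, the partner with which PPARγ binds DNA. It had a 3′ UTR peak in exon 10 of 10, with midpoints 829 to 1004 bases past the stop codon, in 3 lists: chr2:27760580-27760804 in DMSO Pre with a score of 6.88, chr2:27760455-27760729 in DMSO Diff with 11.2 and chr2:27760430-27760604 with rhein with 6.29. No Rxra peak was listed in DMSO MCE, although that list was the longest. Only 25 bases were covered in all 3 lists. A further 3′ UTR peak was listed in DMSO Diff alone, with a score of 8.25.

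Nr3c1 encodes the glucocorticoid receptor, the target of the dexamethasone in the differentiation cocktail. It had coding peaks in exon 2 of 9 in the 3 DMSO lists and none with rhein. Relative to the end of the coding sequence, with negative values upstream, their midpoints lay at -2035 bases in DMSO Pre, -1660 in DMSO MCE, and -1485 and -1372 in DMSO Diff. The scores were 8.14, 6.05, 8.40 and 9.67, and none of these 4 sites overlapped another. The gene was thus called at 3 stages without a base in common.

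Ppard encodes PPARδ, which acts in fatty acid oxidation, and had a 5′ UTR peak in DMSO MCE with a score of 7.23. Nr1h2 encodes LXRβ, a receptor for oxysterols, and had a peak in coding exon 6 with rhein, with a score of 7.84. Pparg, the receptor that is required for adipogenesis and is the central member of the set, had no peak in any list.

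Of the other DNA-binding factors, 2 of 12 had peaks (16.7%), which is near the 16.3% of all protein-coding genes over any list. Sox9, which keeps progenitors undifferentiated, had 1 peak in each list, all in the 3′ UTR in exon 3 of 3 and between 253 and 290 bases past the stop codon by their midpoints. The peak was at chr11:112785651-112785950 in DMSO Pre with a score of 12.7, chr11:112785601-112785925 in DMSO MCE with 16.2, chr11:112785676-112785900 in DMSO Diff with 22.3 and chr11:112785751-112785800 with rhein with 5.24. It was 300, 325, 225 and 50 bases long in this order. The Sox9 peak lay in the top 19.5% of the DMSO Pre list and in the top 6.26% and 6.59% of the later DMSO lists, whereas with rhein it was ranked 2943 of 3069.

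Ddit3 encodes CHOP, a stress-induced factor that blocks C/EBP binding. A coding peak in its exon 4 of 4 was shared by DMSO MCE (chr10:127295876-127296000, score 6.68) and rhein (chr10:127295876-127295975, score 4.85). In DMSO Pre there was a 3′ UTR peak (chr10:127296201-127296288, score 5.73) and a peak on a noncoding transcript (chr10:127293719-127293793, score 4.31). All were weak, with ranks of 3312 of 5128, 3020 of 3069, 2168 of 2824 and 2785 of 2824. The 3′ UTR peak overlapped exons of Mars, which runs in the opposite direction and had a peak at the same place, and since the strandedness of the counting was not given in the sources used here, the origin of that signal cannot be told apart.

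No peak was listed in the other 10 DNA-binding factors. These were Cebpa, which sustains Pparg expression, Srebf1 and Srebf2, which activate lipid and sterol synthesis, the preadipocyte factors Gata2, Gata3, Zfp423, Ebf1 and Ebf2, the early response factor Egr2, and Prdm16, the brown fat determinant. Cebpb and Cebpd, which are not among the 47 genes, had a peak in each list, while their later relative Cebpa had none.

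Of the coregulators, 3 of 7 had peaks (42.9%, against 16.3% of all protein-coding genes over any list). Ncor1, a corepressor that binds nuclear receptors without ligand, had 2 peaks for DMSO Pre, 5 for DMSO MCE, 1 for DMSO Diff and 2 with rhein, at 4 sites that were each found in 2 lists. Its 3′ UTR peak was at chr11:62317526-62317675 in DMSO Pre with a score of 13.7 and at chr11:62317601-62317650 in DMSO MCE with 8.48. A peak in exon 16 was at chr11:62383232-62383331 in DMSO Pre with a score of 5.12 and at chr11:62383232-62383375 in DMSO MCE with 6.96. These DMSO Pre and DMSO MCE sites had no peak in DMSO Diff or with rhein.

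In DMSO Diff the single Ncor1 peak covered parts of 2 exons at chr11:62384718-62389762 with a score of 12.1, and the rhein peak at chr11:62384743-62384842 in exon 15 lay inside it with 5.52. The remaining site was in exon 20, at chr11:62373251-62373325 and chr11:62373101-62373150 in DMSO MCE with scores of 5.97 and 5.97, and at chr11:62373101-62373300 with rhein with 5.52. A further DMSO MCE peak of Ncor1 had ends 33779 bases apart on the genome (chr11:62349428-62383206), covered up to 1966 exonic bases in 13 exons and enclosed both exon 20 peaks of that list, so its exonic length is an upper bound. Ncor1 was therefore called in every list, but no site of it was called in more than 2.

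Med1, the Mediator subunit that contacts PPARγ, had 1 peak in each DMSO list and none with rhein. The 3′ UTR peaks of DMSO Pre and DMSO Diff ended at the same base of the transcript, which runs on the minus strand, in DMSO Pre (chr11:98154654-98154728, score 9.92) and DMSO Diff (chr11:98154654-98154803, score 9.86). In DMSO MCE it lay at chr11:98153854-98154078 with a score of 6.15 and overlapped neither. Ncoa2, a coactivator of nuclear receptors, had 2 adjacent coding peaks in exon 11 in DMSO MCE, with scores of 5.56 and 5.33. Ncoa1, Ppargc1a, Ppargc1b and Runx1t1 had no peak.

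Neither regulator of signalling had a peak. Dlk1 is a transmembrane inhibitor of adipogenesis and the preadipocyte marker of the set, and Insig1 retains the SREBP complex in the endoplasmic reticulum.

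Among the 20 lipid genes of the set, those with peaks were mostly genes of synthesis. This did not extend to the wider pathway list below, where 23 of 79 other lipid genes had a peak in any list (29.1%). Most genes of fatty acid and sterol synthesis in that wider list had none. In the set, all 6 genes of fatty acid and sterol synthesis had a peak in at least 1 list: 1 of them for DMSO Pre, 5 for DMSO MCE, 0 for DMSO Diff and 4 with rhein. Of the other 14 lipid genes of the set 2 had a peak, Plin2 and Lipe, each in 1 list. Over all protein-coding genes the share was 16.3% over any list, which 2 of 14 is near. Per list it was 6.82%, 12.3%, 6.6% and 7.27% in the same order. Nothing was listed in the 3 genes of triglyceride synthesis (Lpin1, Dgat1 and Dgat2), the 3 of uptake and binding (Lpl, Cd36 and Fabp4) or the 3 of secreted products (Adipoq, Lep and Retn). With 3 genes in each group, a count of 0 is near the share over any list. Transcripts of the fatty acid and sterol synthesis genes of the set ran from 3464 bases (Hmgcs1) to 10050 (Fasn). Those of the 12 lipid genes without a peak ran from 896 to 5581, and the part of length was not tested.

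Fasn, the fatty acid synthase, had the broadest calls among the lipid genes. A peak in its 3′ UTR, in exon 43 of 43, was at chr11:120807246-120807320 in DMSO Pre with a score of 9.03, at chr11:120807196-120807345 in DMSO MCE with 7.91 and at chr11:120807246-120807295 with rhein with 5.50. The spans were 75, 150 and 50 bases and overlapped in 50 bases. The peak was in the top 38.9% and 35.7% of the DMSO Pre and DMSO MCE lists and ranked 2861 of 3069 with rhein, and no Fasn peak was listed in DMSO Diff.

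Acly, which makes cytosolic acetyl-CoA from citrate, had 2 coding peaks in DMSO MCE and 2 with rhein. The shared site was at chr11:100484707-100493604 in DMSO MCE with a score of 6.25 and at chr11:100492609-100493604 with rhein with 8.01. The other peaks lay at different exons, chr11:100519089-100519759 in DMSO MCE with 9.76 and chr11:100505002-100514973 with rhein with 6.97. All 4 Acly peaks spanned introns, with 75 to 225 exonic bases each.

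Hmgcs1, which makes the HMG-CoA that enters sterol synthesis, had 4 peaks in DMSO MCE and 1 with rhein. Their scores ran from 7.18 to 8.88 in DMSO MCE, and the rhein peak scored 7.13. The exon 3 peaks at chr13:119699971-119700095 in DMSO MCE and at chr13:119699896-119699995 with rhein shared 25 bases. Both overlapped exons of Gm48342 on the opposite strand, which also had a peak there in each of these lists, so signal of either transcript cannot be told apart. The next DMSO MCE peak overlapped exons of Gm48342 without a peak on that strand, and those in coding exon 7 and in the 3′ UTR (score 8.26) overlapped no exon on the opposite strand.

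Acaca, the acetyl-CoA carboxylase that commits carbon to fatty acid synthesis, had 2 peaks in its 3′ UTR in DMSO MCE, with scores of 5.67 and 5.70. The stearoyl-CoA desaturases Scd1 and Scd2, which introduce the double bond of monounsaturated fatty acids, were listed in different conditions. Scd2 had a 3′ UTR peak in DMSO MCE with a score of 7.59, and Scd1 had a 3′ UTR and a coding peak with rhein with scores of 7.52 and 5.94, and neither gene had a peak where the other did.

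Of the 5 genes of the lipid droplet and lipolysis, Plin2, a droplet coat protein found in most cells, had a coding peak in DMSO Pre with a score of 5.39. Lipe, the hormone-sensitive lipase, had a 3′ UTR peak with rhein with a score of 8.24, the highest score of a lipid gene in that list. Plin1 and Cidec, the droplet proteins of mature adipocytes, and Pnpla2, the adipose triglyceride lipase, had none. Of the 8 adipocyte identity genes of the set (Pparg, Cebpa, Fabp4, Adipoq, Plin1, Cidec, Lep and Retn), 0 had a peak in any list, DMSO Diff included, beside 16.3% of all protein-coding genes over any list and 6.6% in DMSO Diff. With 8 genes, a count of 0 is near these shares.

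Between stages, the DMSO lists shared 7 of these genes between Pre and MCE (77.8% of the 9 in Pre and 53.8% of the 13 in MCE). Over all protein-coding genes the shares were 71.9% and 39.7%. Between MCE and Diff, 5 genes were shared (38.5% of the 13 and 83.3% of the 6), against 40.2% and 75.2% over all protein-coding genes. Those listed in MCE and not in Diff were Ppard, Ddit3, Ncoa2, Acly, Acaca, Fasn, Scd2 and Hmgcs1, and Rxra was listed in Diff and not in MCE. All 6 genes with a peak in DMSO Diff also had one in DMSO Pre, which was 66.7% of the 9 in Pre and 100% of the 6 in Diff, against 53.8% and 55.6% over all protein-coding genes. The 3 genes in DMSO Pre and not in DMSO Diff were Ddit3, Fasn and Plin2.

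Between treatments, 7 genes were shared by DMSO MCE and rhein (Nr2f2, Sox9, Ddit3, Ncor1, Acly, Fasn and Hmgcs1), which was 53.8% of the 13 and 63.6% of the 11, against 45.5% and 77.3% over all protein-coding genes. Ppard, Nr3c1, Ncoa2, Med1, Acaca and Scd2 were listed in DMSO MCE alone, and Rxra, Nr1h2, Scd1 and Lipe with rhein alone. Against DMSO Diff, 4 genes were shared (Rxra, Nr2f2, Sox9 and Ncor1), Nr3c1 and Med1 were in DMSO Diff alone, and Nr1h2, Ddit3, Acly, Fasn, Scd1, Hmgcs1 and Lipe were with rhein alone. The shared genes were 66.7% of the 6 in DMSO Diff and 36.4% of the 11 with rhein, against 59.4% and 53.9% over all protein-coding genes. Because the rhein lists were a single sample, the comparisons at MCE and Diff rest on the same rhein peaks. Of the 5 lipid genes with a rhein peak, 3 had one in DMSO MCE. None had one in DMSO Diff, which was fixed, since no lipid gene had a peak in that list.

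**Figure D3:**
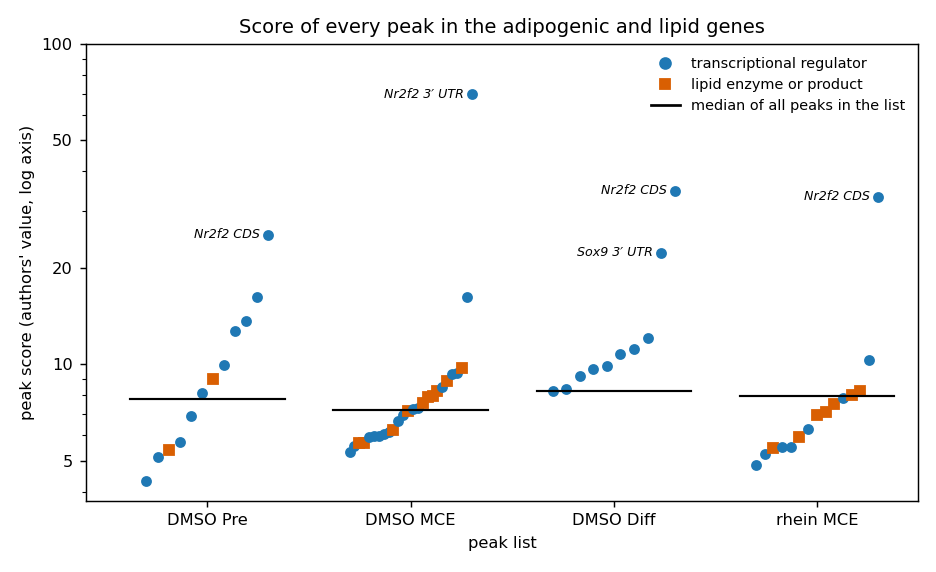
Score of each m6A peak in the 47 genes (points, log axis) in the 4 distinct lists, with circles for regulators, squares for lipid genes and a line at the median of all peaks in the list; points are spread sideways only for sight. Lipid gene peaks lie between 5.39 and 9.76, and the points above 20 are Nr2f2 and Sox9 peaks.

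By score, 9 of the 10 peaks in DMSO Diff were at or above the median of their list (8.27), with a median of 10.3. In DMSO Pre it was 7 of 12, and in DMSO MCE 13 of 26. With rhein only 4 of 15 were at or above the list median of 7.96, with a median of 6.97. The 10 DMSO Diff peaks were all in regulators. Regulator peaks ranged from 4.31 to 69.8 and lipid gene peaks from 5.39 to 9.76, and 0 of the 19 lipid gene peaks were in the top 10% of their lists.

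Lists of different lengths reach different depths of score, so the counts were repeated with the 2824 highest-scoring peaks of each list. The regulators with a peak were then 7, 4, 6 and 3 of 25 (DMSO Pre, DMSO MCE, DMSO Diff and rhein), and the lipid genes 2, 4, 0 and 4 of 20. In DMSO MCE the regulators left were Ppard, Nr2f2, Sox9 and Ncor1, and with rhein Rxra, Nr1h2 and Nr2f2. Over all protein-coding genes the shares at this length were 6.82%, 7.46%, 6.38% and 6.83%. Since shortening a list only removes peaks, the 0 of the lipid genes in DMSO Diff was fixed. Sox9, Ddit3, Ncor1 and Fasn were in the rhein list only through its low-scoring end. Lists cut at equal length still differ in the depth of the libraries behind them.

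Summed over the distinct lists, the shares of peaks of the 47 genes in the parts of transcripts had intervals that included those of all peaks. In DMSO MCE this narrowly did not hold for the stop codon and the last exon. Of the 62 peaks on coding transcripts, 4.84% (95% Wilson interval 1.66 to 13.3) had their midpoint in the 5′ UTR, 51.6% (39.5 to 63.6) in the coding sequence and 43.5% (31.9 to 55.9) in the 3′ UTR. Over all peaks placed on coding transcripts, called all peaks in this paragraph, the shares were 6.74%, 53.5% and 39.7%. Within 200 bases of the stop codon lay 12.9% (6.69 to 23.4), against 23.2% of all peaks, and in the last exon 46.8% (34.9 to 59.0), against 58.4%. In DMSO MCE, which held 26 of the 62 peaks, 7.69% (2.14 to 24.1) lay within 200 bases of the stop codon, against 24.4% of all peaks of that list. In the last exon it was 38.5% (22.4 to 57.5), against 59.1%. Both shares of all peaks were only just above the interval. These 26 include the Ncor1 peak with ends 33779 bases apart and the exon 20 peaks it enclosed, counted apart and all outside the last exon. The shares without that peak were not computed, so no difference from all peaks can be drawn. These intervals cover counting error only and treat peaks of the same gene as independent. Regulators and lipid genes had similar proportions, with 41.9% and 47.4% of peaks in the 3′ UTR.

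**Figure D4:**
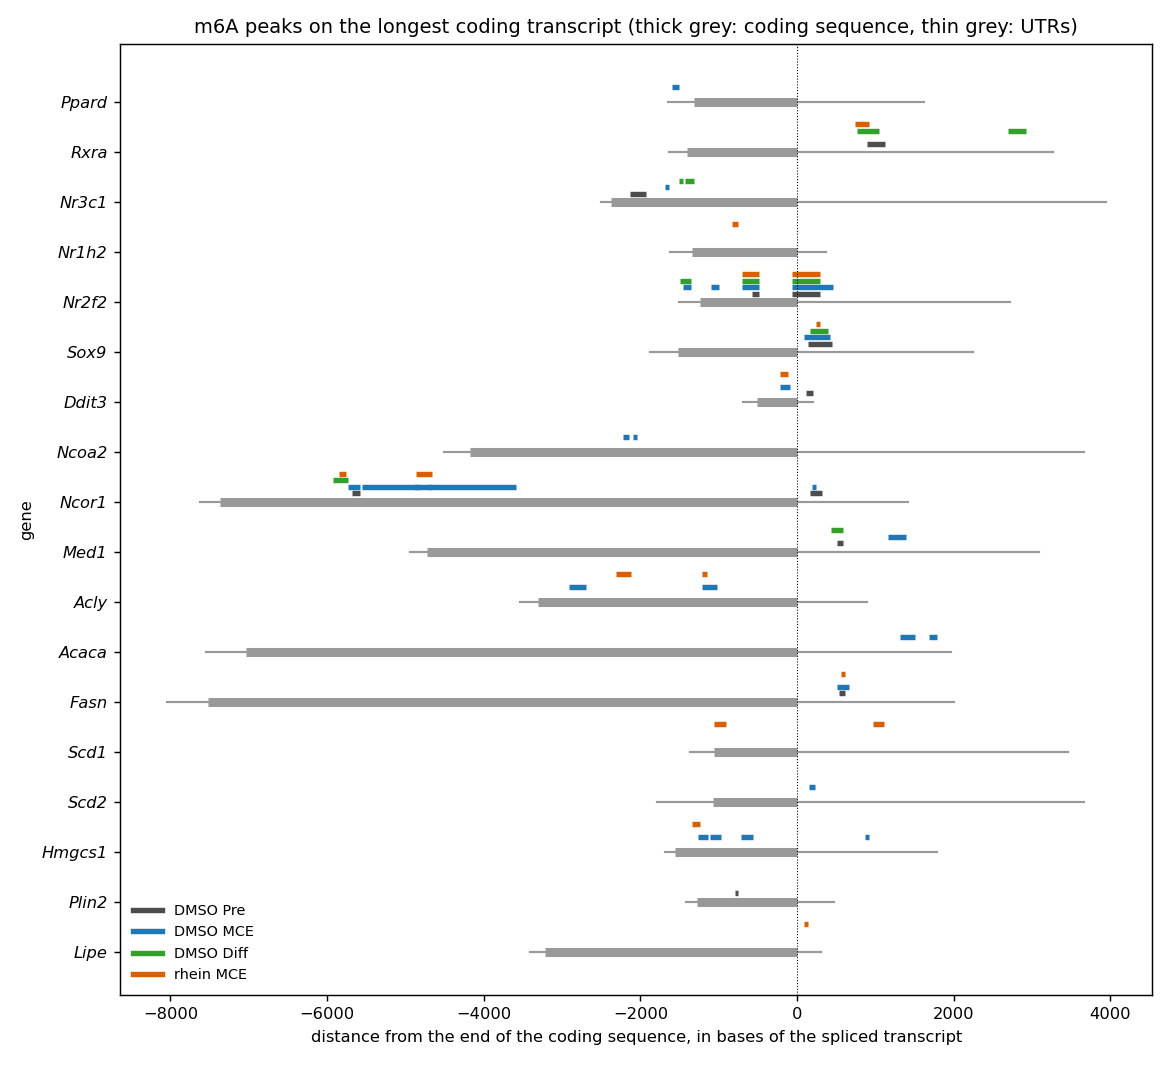
m6A peaks of the 18 genes with a peak, drawn by list above the longest coding transcript of each gene; the horizontal axis is the distance in bases of the spliced transcript from the end of the coding sequence, thick grey is coding and thin grey untranslated, and the Ddit3 peak on a noncoding transcript is left out. Peaks of Nr2f2, Sox9 and Fasn stack at the same place across lists, those of Nr3c1 and Acly mostly do not, and the long DMSO MCE bar of Ncor1 is the peak with ends 33779 bases apart.

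Merging overlapping peaks gave 39 sites in the 18 genes. Of these, 25 were in 1 list, 9 in 2, 2 in 3 (Rxra and Fasn, both 3′ UTR) and 3 in all 4 (the pair of Nr2f2 sites and that of Sox9). Of the DMSO MCE peaks, 10 of 26 (38.5%, interval 22.4 to 57.5) overlapped a rhein peak, against 32.0% over all peaks of that list placed on a transcript. Of the rhein peaks, 8 of 15 (53.3%, 30.1 to 75.2) overlapped a DMSO MCE peak, against 53.2%. The sharing of sites in these genes therefore did not differ beyond counting error from that of the lists as wholes.

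GGAC was searched on the sense strand of the exonic sequence and found in 38 of the 63 peaks, or 60.3% (48.0 to 71.5). Among all peaks placed on a transcript the share was 51.9%, which is inside that interval. It was present in 63.6% of regulator peaks (48.9 to 76.2) and in 52.6% of lipid gene peaks (31.7 to 72.7). The broader DRACH was found in 85.7% of the peaks and in 87.0% of all peaks placed on a transcript. Neither exon 3 peak of Hmgcs1 held a GGAC, and at the Med1 site the DMSO Pre peak held none while the wider DMSO Diff peak held 2.

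Transcript lengths are given beside these counts. The median length of the longest coding transcript was 4629 bases for the 18 genes with a peak and 3399 for the 29 without, a ratio of 1.36, and over all protein-coding genes it was 3712 and 2538. With the median over the coding transcripts of each gene in place of the longest, the ratio was 1.09. Within lipid genes the medians were 4629 and 2443.5 bases, and within regulators 4563.5 and 4907. Among genes of at least 2713 bases, the median of all protein-coding genes, 15 of 34 of the set had a peak (44.1%) against 22.4% of all, and among shorter ones 3 of 13 (23.1%) against 10.3%. The part of length and of expression in the counts was not tested.

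The gene names in the lists matched the exons in 53 of the 63 peaks. The other 10 lay in exons of Ddit3, Med1, Acaca, Scd2 and Lipe but were listed as Mars1, Fbxl20, Aatf, Mir5114 and 4732471J01Rik. A further 3 peaks were listed as Hmgcs1 but lay in exons of the opposite-strand Gm48342. By listed name, Med1, Acaca, Scd2 and Lipe would have had no peak at all.

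A wider list of 145 other genes of the pathway was examined in the same way. In DMSO Pre 29 of them had a peak (20.0%), and 47 did in DMSO MCE (32.4%), 34 in DMSO Diff (23.4%) and 31 with rhein (21.4%). Over all protein-coding genes the shares were 6.82%, 12.3%, 6.6% and 7.27%. These genes too were chosen with earlier results of these data known. Those with a peak in each list were 11: the early C/EBP genes Cebpb and Cebpd, Sox4, Nfe2l1, Bhlhe40, Med23, Mbtps1 (the protease that activates SREBP), Adipor2 (an adiponectin receptor), Lrp1, Lrp6 and Gpat4 (a glycerol-phosphate acyltransferase). The 11 genes were 7.59% of the wider list, against 2.53% of protein-coding genes with a peak in all 4 distinct lists. By class they were 6 of 56 regulators, 4 of 10 regulators of signalling and 1 of 79 lipid genes (1.27%). The 56 other regulators had peaks in 16, 27, 21 and 18 genes (28.6%, 48.2%, 37.5% and 32.1%). The 79 other lipid genes had peaks in 9, 15, 9 and 9 (11.4%, 19.0%, 11.4% and 11.4%). The absence of lipid genes from DMSO Diff therefore held for the 20 genes of the set and not for the pathway. There, 9 of the 79 others had a peak (11.4%, against 6.6% of all protein-coding genes). Among those 9 genes, the droplet coat gene Plin4 and the lipolysis activator Abhd5 belong to the same step as Plin1 and Pnpla2, which had none. Plin4 and Abhd5 were picked after their values were seen. Other droplet and lipolysis genes of the wider list had no peak in DMSO Diff.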

How the data were processed

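m6A immunoprecipitation and input RNA of 3T3-L1 cells were sequenced for 5 conditions, with 1 IP and 1 input library per condition. Per the labels and the methods of the study, total RNA was fragmented, reads were trimmed with Trim Galore 0.6.5, aligned to mm10 with HISAT2 2.1.0, cleared of duplicates with Picard 2.23.5 and filtered by mapping quality with SAMtools 1.9, and peaks were called with exomePeak2 (version not given in the sources used here) at default settings and annotated with ChIPseeker 1.26. The deposited value of each peak was treated as a score: its header names a log2 fold change, but it behaved as minus log2 of the adjusted p-value. The authors deposited no read number per peak, so the depth behind a peak is unknown, and the score ranks peaks within a list only.

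Peaks were placed on GENCODE release M21 (GRCm38, the mm10 assembly), on the same strand with both ends in exons of a transcript, coding transcripts first and then the longest. A transcript was found for 96.5% to 97.6% of peaks per list. Placement was run on 2000 simulated peaks, of which 99.05% returned their gene. These were drawn from the longest coding transcript of each gene, which the placement prefers. High recovery was thus built in, and the run checks the code and not the accuracy on real peaks. Sequences were read from the transcripts of the same release. The motif searched was GGAC, and DRACH as an alternative. Peaks were called shared at an overlap of at least 1 exonic base. Sites on transcripts are given by the peak midpoint.

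The 47 genes, the 145 other pathway genes and the alternatives were chosen with earlier results of these data known. All 47 genes are named, with coordinates for those with peaks in at least 2 distinct lists, except Nr3c1, and other pathway genes with a peak in each list are named, as are Plin4 and Abhd5, which were chosen after their values were seen. Some pathway genes are not reported here. Sequence windows were shown for genes with a GGAC in overlapping peaks of at least 2 lists, by the highest score, with the coding site of Nr2f2 added afterwards. No test between conditions was made, because no condition had a replicate. Intervals are 95% Wilson intervals for shares of peaks. Alternatives were gene names as listed, any exonic overlap, strand not required, scores at or above the list median, lists of equal length, another overlap and another motif. Python 3.11.15 and pandas 2.3.3 were used.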

Additional observations from a re-analysis of the deposited data

Results flagged for a closer look

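The difference between rhein and DMSO had opposite signs at MCE and at Diff in 3 counts. The number of the 47 genes with a peak differed by -2 at MCE (rhein minus DMSO, 11 against 13 genes) and by 5 at Diff (11 against 6). The number of their peaks differed by -11 at MCE and by 5 at Diff, and that of lipid gene peaks by -3 and by 7. These differences were not tested, since each condition was 1 library pair, and the rhein side of both is the same set of peaks, so that the change of sign is that between DMSO MCE and DMSO Diff.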

How the results depend on the processing

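No paired analysis was possible because the result comes from no test and each condition had 1 replicate. Of 73 alternative values, 57 stayed within 1.5 times or within the interval of the reported value and 16 did not. Some of the 57 could not move. The equal length of 2824 was that of the DMSO Pre list itself, and cutting the DMSO Diff list could not change its lipid count of 0. With scores at or above the list median, the peaks of the 47 genes were 7 in DMSO Pre, 13 in DMSO MCE and 4 with rhein, the genes with a peak 8 in DMSO MCE and 3 with rhein, the regulators 4 in DMSO MCE and 1 with rhein, and the lipid genes 1 in DMSO Pre and 2 with rhein. Over all protein-coding genes the shares at that setting were 3.88%, 6.92%, 3.58% and 4.15% in DMSO Pre, DMSO MCE, DMSO Diff and rhein, beside which 1 of 25 regulators with rhein is near the background. With lists of equal length (2824 peaks), DMSO MCE had 8 genes and 14 peaks, rhein had 7 genes, the regulators were 4 in DMSO MCE and 3 with rhein, and 30% of rhein peaks overlapped a DMSO MCE peak. DRACH in place of GGAC gave 85.71%. The class counts under these settings, and sharing without the Ncor1 peak over 30 kb, were added after seeing the data. The lists give no read numbers, so depth limits every absence of a peak, and with 1 library pair per condition no difference between lists can be set against the spread between cultures. Whether the rhein peaks came from MCE, Diff or both was not established.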
